A study of Mus musculus with 20 samples.

Results

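Glycolysis and the hypoxia response are described here through 32 genes. They were chosen by name for their place in glucose breakdown or in the pathway of the hypoxia-inducible factor HIF-1. Earlier results of these data were known at the time, so comparisons of these genes with all genes are descriptions. All 32 were found among the 24421 genes counted, and 31 of them were among the 12132 genes abundant enough to test. Macrophages grown from mouse bone marrow were treated for 48 h with LP PIC, LP 3M, LP 3M PIC or LP, where LP is taken to be the lipoparticle that the series is named for and the sources used here do not say what PIC and 3M stand for. Cells of the same 5 mice received every condition, which gave 20 libraries, 5 per condition. Every condition, LP included, carried the particle and the conditioned medium of L929 cells, which supplies the growth factor CSF-1. For strain, sex and age of the mice, the sources used here give nothing.

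Glycolysis splits glucose into pyruvate, and fermentation turns that pyruvate into lactate, which leaves the cell through monocarboxylate transporters. HIF-1 is a transcription factor whose alpha subunit, the product of Hif1a, is marked for destruction by oxygen-dependent prolyl hydroxylases of the Egln family, so that the amount of its messenger RNA need not follow that of the protein. Its targets include glucose transporters, most glycolytic enzymes, lactate dehydrogenase A and kinases that inhibit the mitochondrial enzyme pyruvate dehydrogenase. Macrophages activated by microbial products are known for a turn towards glycolysis, and in them Hif1a is also transcribed in response to NF-kB.

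Total gene counts lay between 9740528 and 23874805 per library, the lowest in LP of mouse 2 and the next in LP 3M PIC of mouse 3. Levels are CPM, the counts per 1000000 of a library's total, and log2 fold changes were scaled by TMM. With library totals alone, the median log2 change of all genes against LP was -0.043 for LP PIC, -0.122 for LP 3M and -0.095 for LP 3M PIC, while with TMM it was -0.00, -0.013 and 0.016 in that order. The 8 macrophage markers examined, Lyz2 foremost, all averaged at least 1 CPM in each condition. Defining markers of T and NK cells and of red cells (Cd3e, Cd8a, Ncr1, Nkg7 and the hemoglobin genes) were at 0 in all 20 libraries. Summed levels of 10 neutrophil markers had a median of 107 CPM in LP PIC, 274 CPM in LP 3M and 1176 CPM in LP 3M PIC, against 57.2 CPM in LP. Lcn2 or Csf3r was the highest of these genes, 3 or 4 of the 10 averaged at least 1 CPM, and Retnlg was at 0 throughout. Summed dendritic cell markers ranged from 6.24 to 46.2 CPM in LP 3M PIC and from 0 to 0.223 CPM in LP, with Ccr7 highest in LP 3M PIC and Cd209a at 0 throughout. Summed markers of fibroblasts and stroma had medians of 36.0 CPM in LP PIC, 37.2 CPM in LP 3M and 38.0 CPM in LP 3M PIC, against 37.7 CPM in LP. The part of these markers in the results was not tested. In bulk RNA, fewer cells of a type and less RNA per cell cannot be told apart.

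LP PIC and LP 3M gave different patterns over these genes, as the map of member levels shows. In LP 3M, 13 of 31 tested members rose against LP and 3 fell, most of them glycolytic enzymes and transporters, with a median log2 change of 0.39, against -0.01 over all genes. Of all tested genes 39.5% were called there, 20% higher and 19.5% lower. In LP PIC, 7 members rose and 8 fell, with a median of 0.00, as over all genes, where 45.5% of all genes were called, 22.7% in each direction. In the dual formulation LP 3M PIC, 16 members rose and 8 fell, among them both directions within the phosphofructokinases, with a median of 0.25 against 0.02 over all genes, of which 62.2% were called, 31.7% higher and 30.6% lower. These 3 comparisons share the LP libraries, and the members were chosen with earlier results of these data known. The share of members called, 24 of 31 in LP 3M PIC, is to be read against a background where most genes were called too. Changes of at least 1 (log2) were called for 5 members with LP PIC, 5 with LP 3M and 12 with LP 3M PIC, against 13.1%, 9.6% and 22.1% of all tested genes. With library totals in place of TMM, 11 members rose and 10 fell in the dual formulation, and the share of all genes called with that scaling is not given here. The median log2 change of all genes there was -0.095, against 0.016 with TMM.

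**Figure D1:**
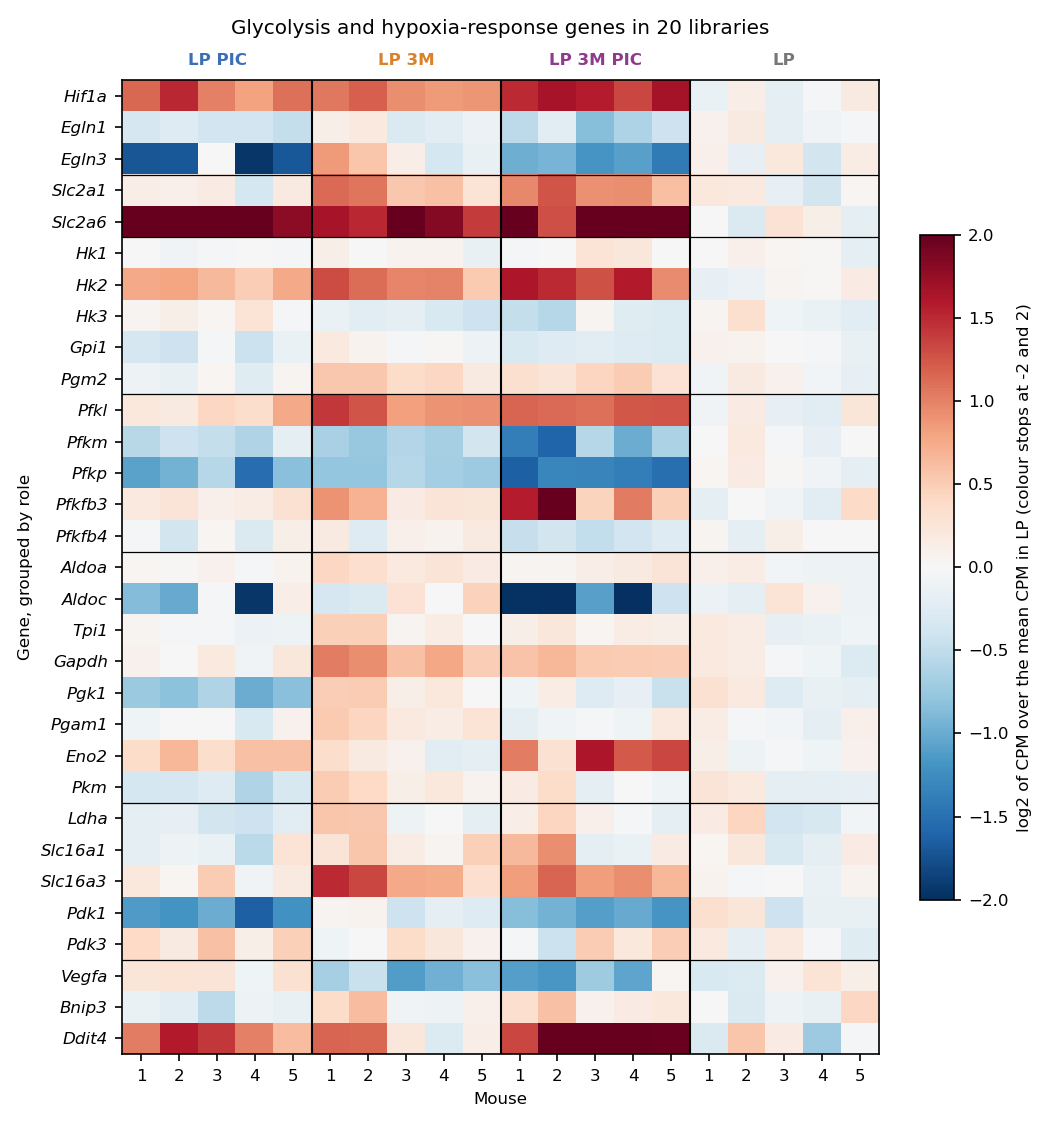
Heat map of the 31 tested members (rows, grouped by role) in the 20 libraries (columns, mice 1 to 5 within each condition); colour is the log2 ratio of CPM to the mean CPM in LP, with 0.1 CPM added and colours stopped at -2 and 2. Hif1a, Slc2a6 and Hk2 were above the LP mean in every library of the 3 other conditions, and Pfkp was below it in all of them.

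**Figure D2:**
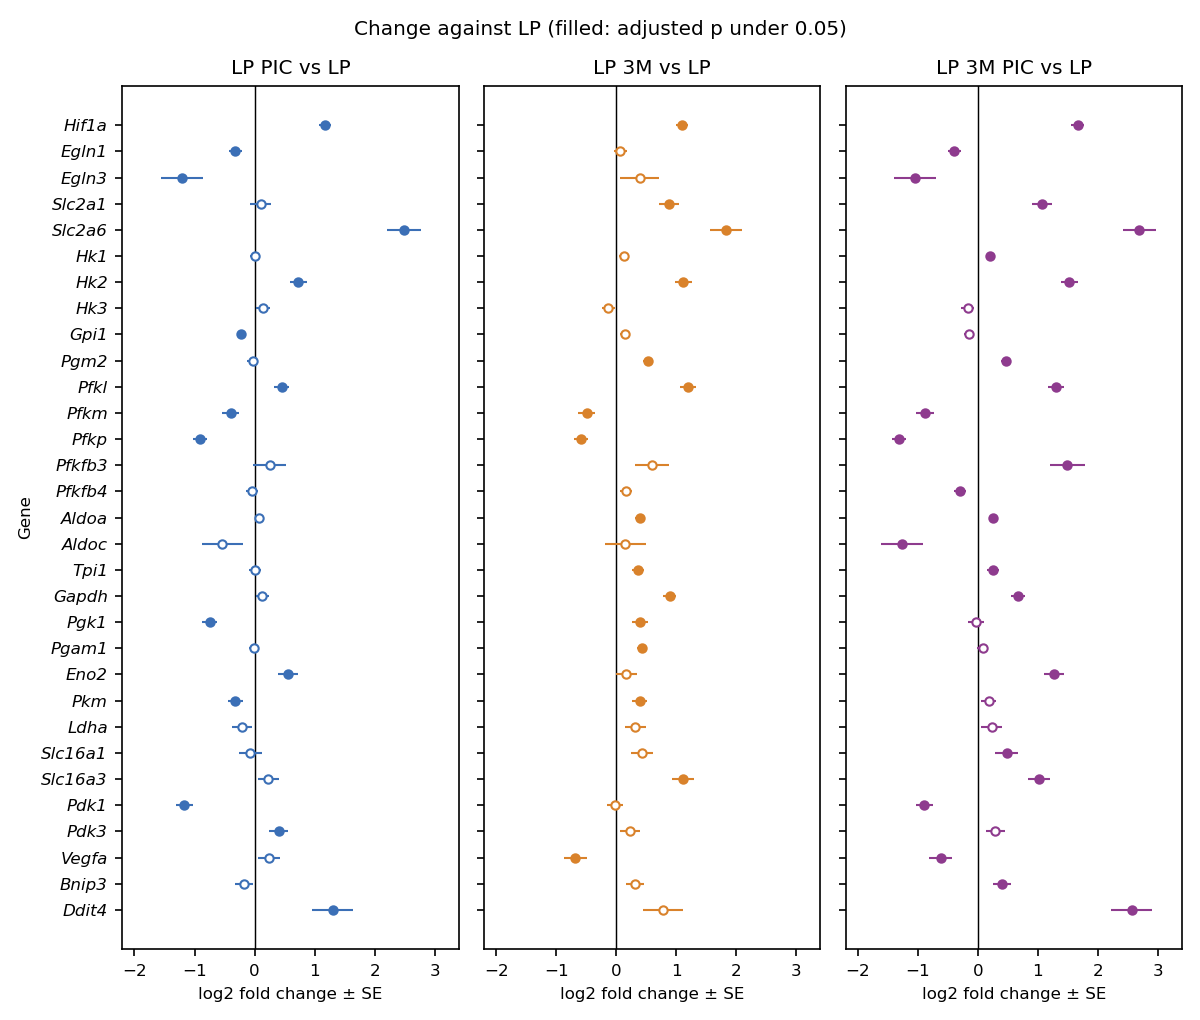
log2 fold change against LP with its SE for each tested member (rows) in the 3 other conditions (panels); filled points passed an adjusted p of 0.05. There are 15 filled points for LP PIC, 16 for LP 3M and 24 for LP 3M PIC.

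HIF-1 binds short DNA elements with the core ACGTG or GCGTG, and the stretch just before 1 RefSeq start of each member was searched for them. ACGTG, on either strand (CACGT when read on the printed strand), occurred in the 250 bases before that start in 17 of 32 members (53.1%). Of all 32851 such windows of the RefSeq table, which was not cut to 1 per gene, 16.6% held it. GCGTG, on either strand (CACGC on the printed one), occurred in 15 members (46.9%), against 28.2% of all windows, and 25 members (78.1%) held at least 1 of them, against 38.6%. A match is a description of the letters and not a binding site. The windows of 5 members are printed because these genes moved differently. Slc2a1, Hk2 and Slc16a3 rose with LP 3M and LP 3M PIC. Pgk1 fell with LP PIC and rose with LP 3M. Ldha, with the most ACGTG matches, passed no comparison with LP in the main test, which did not pair libraries by mouse. With the mouse as a block it passed in LP 3M (0.31 on the log2 scale, adjusted p = 0.0275). Sequences are those of RefSeq on GRCm38.p6, read 5′ to 3′ on the strand of the gene, with ACGTG and CACGT in capitals. They lie at chr4:119108495-119108744 (plus strand) for Slc2a1, chr6:82774455-82774704 (minus strand) for Hk2, chr11:120948817-120949066 (plus strand) for Slc16a3, chrX:106186850-106187099 (plus strand) for Pgk1 and chr7:46845554-46845803 (plus strand) for Ldha.
Slc2a1: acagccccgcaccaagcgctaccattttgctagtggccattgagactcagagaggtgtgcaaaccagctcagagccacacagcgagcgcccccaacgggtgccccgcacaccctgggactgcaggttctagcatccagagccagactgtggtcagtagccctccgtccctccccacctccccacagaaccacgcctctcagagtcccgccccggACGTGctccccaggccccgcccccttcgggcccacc
Hk2: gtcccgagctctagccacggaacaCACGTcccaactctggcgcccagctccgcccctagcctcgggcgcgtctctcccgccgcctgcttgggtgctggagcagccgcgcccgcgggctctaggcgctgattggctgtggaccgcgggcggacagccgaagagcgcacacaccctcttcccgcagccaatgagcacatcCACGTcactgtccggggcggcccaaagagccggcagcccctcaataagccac
Slc16a3: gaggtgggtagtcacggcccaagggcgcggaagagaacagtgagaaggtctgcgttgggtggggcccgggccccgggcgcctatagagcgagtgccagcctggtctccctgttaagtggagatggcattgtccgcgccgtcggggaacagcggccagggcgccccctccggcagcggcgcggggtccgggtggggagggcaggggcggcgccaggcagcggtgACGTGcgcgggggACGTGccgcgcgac
Pgk1: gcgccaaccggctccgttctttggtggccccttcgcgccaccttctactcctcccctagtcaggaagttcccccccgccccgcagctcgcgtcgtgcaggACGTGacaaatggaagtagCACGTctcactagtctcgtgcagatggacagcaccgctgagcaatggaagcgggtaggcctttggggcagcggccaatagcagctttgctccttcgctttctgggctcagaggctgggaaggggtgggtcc
Ldha: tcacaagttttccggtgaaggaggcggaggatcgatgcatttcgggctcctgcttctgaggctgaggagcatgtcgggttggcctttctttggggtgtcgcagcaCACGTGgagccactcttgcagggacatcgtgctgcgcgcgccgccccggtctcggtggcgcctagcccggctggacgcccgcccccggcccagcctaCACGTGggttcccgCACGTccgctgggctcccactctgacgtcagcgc
The Ldha window held 5 ACGTG matches, since each of its CACGTG palindromes counts once on each strand. The windows of Hk2, Slc16a3 and Pgk1 held 2 ACGTG matches each and that of Slc2a1 held 1. The Slc2a1 window also held 1 GCGTG match, which is not in capitals. The windows of Ldha and Slc16a3 lie inside the genes as annotated in GENCODE M21, which start at 46841475 and 120948480. The window of Hif1a, not printed, also lies inside its gene. Other start sites of the members were not searched.

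Hif1a, the gene of the oxygen-regulated HIF-1 subunit (chromosome 12, 73901375 to 73947530, plus strand), rose in all 3 formulations. It had 172, 220.4, 157, 136 and 167 CPM in LP PIC of mice 1 to 5, 161, 178, 148, 141 and 144 CPM in LP 3M, and 219, 244, 230.0, 197 and 247 CPM in LP 3M PIC, against 70.7, 85.3, 68.6, 76.4 and 87.9 CPM in LP. Every library with PIC or 3M lay above every LP library. The log2 change was 1.17 ± 0.10 (SE) in LP PIC (adjusted p = 3.49e-08), 1.10 ± 0.10 in LP 3M (adjusted p = 1.68e-07) and 1.66 ± 0.10 in LP 3M PIC (adjusted p = 2.12e-10), each in 5 of 5 mice. LP 3M PIC exceeded LP 3M by 0.56 and LP PIC by 0.49 on the log2 scale (adjusted p = 0.000267 and 0.000834). LP 3M and LP PIC differed by -0.07 ± 0.10 (adjusted p = 0.581).

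Of the HIF-1 alpha hydroxylases, the members Egln1 and Egln3 fell in both conditions with PIC, and Egln2, which is no member, did not. Egln1, known as the main oxygen sensor of this family, averaged 37.4 ± 2.16 CPM in LP PIC, 46.5 ± 6.91 CPM in LP 3M and 33.8 ± 5.39 CPM in LP 3M PIC, against 48.2 ± 4.79 CPM in LP (mean ± SD, n = 5, as in all such values). It fell by 0.32 (log2) in LP PIC and by 0.39 in LP 3M PIC (adjusted p = 0.0194 and 0.00365), and its change was 0.07 ± 0.11 in LP 3M, which did not pass. Egln3, a hydroxylase that is itself a HIF target, was scarce, with at most 132 counts in any library. Egln3 had 0.846, 0.864, 3.02, 0.706 and 0.864 CPM in LP PIC, 5.53, 4.45, 3.31, 2.33 and 2.7 CPM in LP 3M, and 1.49, 1.54, 1.28, 1.36 and 1.07 CPM in LP 3M PIC, against 3.24, 2.67, 3.49, 2.31 and 3.35 CPM in LP. All LP 3M PIC libraries and all LP PIC libraries but that of mouse 3 lay below all LP libraries. Its log2 change was -1.21 ± 0.35 in LP PIC (adjusted p = 0.0077), -1.05 ± 0.35 in LP 3M PIC (adjusted p = 0.0131) and 0.39 ± 0.33 in LP 3M (adjusted p = 0.363). LP 3M exceeded LP PIC in Egln3 by 1.60 ± 0.34 (adjusted p = 0.000911), or by 2.25 without mouse 3. Egln2, named after its values were seen, was the most abundant of the 3 hydroxylases per kilobase of transcript, at 25.1 ± 1.51 CPM in LP PIC, 36.1 ± 6.14 CPM in LP 3M and 40.2 ± 7.26 CPM in LP 3M PIC, against 25.2 ± 1.69 CPM in LP. It rose by 0.63 ± 0.13 (log2) in LP 3M and by 0.79 ± 0.13 in LP 3M PIC (adjusted p = 0.00066 and 2.51e-05), and its change in LP PIC was 0.04 ± 0.13 (adjusted p = 0.843).

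Among 10 further genes of HIF regulation, 4 rose and 2 fell in LP 3M PIC, against 31.7% and 30.6% of all tested genes. Epas1, which encodes the HIF-2 alpha subunit, ran against Hif1a: it averaged 24.7 ± 8.03 CPM in LP PIC, 14.0 ± 7.02 CPM in LP 3M and 3.37 ± 1.66 CPM in LP 3M PIC, against 71.5 ± 33.0 CPM in LP. Its log2 change was -1.48 ± 0.38, -2.23 ± 0.39 and -4.25 ± 0.44 in that order (adjusted p = 0.0036, 0.000208 and 1.54e-07), and the LP libraries, from 38.7 to 109.6 CPM, lay above all others. Per kilobase of transcript, Hif1a made up 89.2 ± 2.17% of the summed Hif1a and Epas1 level in LP PIC, 92.9 ± 3.27% with LP 3M and 98.8 ± 0.525% with LP 3M PIC, against 57.7 ± 10.9% in LP. Arnt2, a relative of the HIF beta subunit, averaged 5.75 ± 3.46 CPM in LP 3M PIC and 0.999 ± 0.636 CPM in LP, with a log2 change of 2.66 ± 0.58 (adjusted p = 0.000614).

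**Figure D3:**
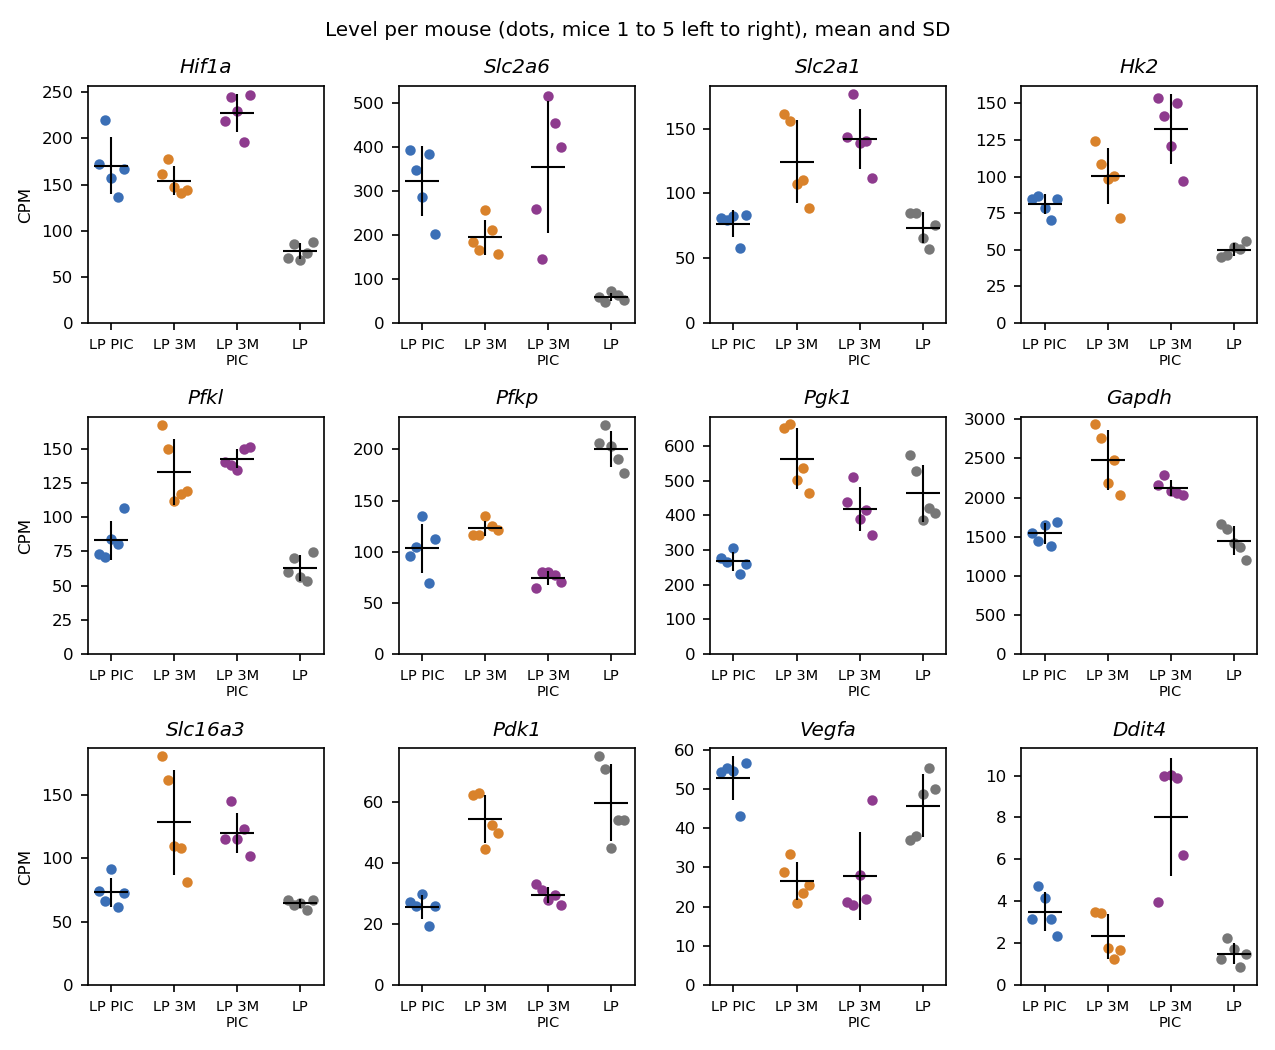
CPM of 12 members in every library (dots, mice 1 to 5 from left to right within a condition) with the mean and SD (n = 5), from an axis that starts at 0. Hif1a was lowest in LP, Pfkp was highest in LP, and Pdk1 was low in both conditions with PIC.

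Both glucose transporters among the members rose with 3M. Slc2a6 (GLUT6), a transporter of intracellular membranes that is abundant in activated macrophages, gave the largest rise of all members in each comparison with LP. It had 393, 347, 286, 383 and 203 CPM in LP PIC, 184, 167, 256, 212 and 156 CPM in LP 3M, and 259.6, 144, 515, 454 and 399.5 CPM in LP 3M PIC, against 58.3, 48.4, 72.3, 63.6 and 52.0 CPM in LP. All libraries with PIC or 3M lay above all LP libraries, and LP 3M PIC spread widest, with mouse 2 lowest. The log2 change was 2.49 ± 0.28 for LP PIC, 1.83 ± 0.27 for LP 3M and 2.69 ± 0.28 for LP 3M PIC (adjusted p = 9.16e-07, 4.01e-05 and 1.58e-07).

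Slc2a1 (GLUT1), the classic HIF-regulated glucose importer of the plasma membrane, had 80.9, 79.1, 82.6, 57.8 and 83.2 CPM in LP PIC, 161, 156, 108, 110.2 and 88.9 CPM in LP 3M, and 144, 177, 139, 140.1 and 112 CPM in LP 3M PIC, against 85.2, 84.8, 65.6, 57.1 and 75.6 CPM in LP. Both conditions with 3M lay above LP without overlap, and LP PIC overlapped LP. Slc2a1 rose by 0.88 ± 0.17 (log2) in LP 3M and by 1.07 ± 0.17 in LP 3M PIC (adjusted p = 0.000453 and 2.1e-05), and its change was 0.10 ± 0.17 in LP PIC (adjusted p = 0.642). LP 3M exceeded LP PIC by 0.77 ± 0.17 (adjusted p = 0.00102). Slc2a3 (GLUT3), outside the 32 members, fell in all 3 formulations: it averaged 6.76 ± 1.73 CPM in LP PIC, 10.7 ± 1.72 CPM in LP 3M and 5.21 ± 0.311 CPM in LP 3M PIC, against 18.9 ± 2.93 CPM in LP. Its log2 change was -1.44 ± 0.15, -0.71 ± 0.14 and -1.74 ± 0.15 in that order (adjusted p = 2.34e-07, 0.000729 and 1.1e-08).

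Of the hexokinases, which trap glucose in the cell as glucose 6-phosphate, Hk2 rose everywhere. It had 84.9, 86.8, 78.6, 70.3 and 84.5 CPM in LP PIC, 125, 108, 98.5, 100.1 and 71.7 CPM in LP 3M, and 154, 142, 121, 150.2 and 96.8 CPM in LP 3M PIC, against 44.9, 46.4, 52.3, 50.7 and 56.3 CPM in LP. No LP library reached the range of another condition. The log2 change was 0.73 ± 0.14 for LP PIC, 1.12 ± 0.14 for LP 3M and 1.52 ± 0.14 for LP 3M PIC (adjusted p = 0.00029, 5.98e-06 and 3.1e-08), and LP 3M PIC exceeded LP PIC by 0.79 (adjusted p = 0.00019).

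Per kilobase of transcript, Hk2 was the scarcest of the 3 hexokinases in every condition. Hk3, the hexokinase of myeloid cells, supplied 80.1 ± 1.48% of the summed level in LP PIC, 74.6 ± 0.954% with LP 3M and 71.4 ± 3.35% with LP 3M PIC, against 80.2 ± 1.81% in LP. The share of Hk2 was 4.91 ± 0.645% in LP PIC, 7.09 ± 0.875% with LP 3M and 9.47 ± 2.35% with LP 3M PIC, against 3.29 ± 0.660% in LP. Hk3 itself passed in no comparison with LP, with changes of 0.14 ± 0.11 (log2) for LP PIC, -0.13 ± 0.11 for LP 3M and -0.17 ± 0.11 for LP 3M PIC. Hk1, the hexokinase found in most tissues, rose by 0.21 ± 0.08 in LP 3M PIC (adjusted p = 0.0224, higher in 3 of 5 mice).

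Both enzymes that pass hexose phosphates on behaved differently. Gpi1, which turns glucose 6-phosphate into fructose 6-phosphate, averaged 414 ± 50.5 CPM in LP PIC, 509.7 ± 39.9 CPM in LP 3M and 414 ± 9.48 CPM in LP 3M PIC, against 497 ± 32.6 CPM in LP. It fell by 0.22 (log2) in LP PIC (adjusted p = 0.0404) and did not pass in LP 3M PIC (-0.15 ± 0.08, adjusted p = 0.126). Pgm2, a phosphoglucomutase, averaged 58.1 ± 5.92 CPM in LP 3M and 56.1 ± 4.23 CPM in LP 3M PIC, against 43.7 ± 4.21 CPM in LP. It rose by 0.53 ± 0.09 and 0.47 ± 0.09 (adjusted p = 0.000138 and 0.000127), while the change in LP PIC was -0.03 ± 0.09.

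Phosphofructokinase, the committing step of glycolysis, changed in its makeup. Pfkl, the liver-type subunit, rose in all 3 formulations, and Pfkp and Pfkm, the platelet-type and muscle-type subunits, fell in all 3. Pfkl had 72.9, 70.9, 84.1, 80.7 and 107 CPM in LP PIC, 168, 149.8, 112, 117 and 119 CPM in LP 3M, and 141, 138, 135, 149 and 151 CPM in LP 3M PIC, against 59.8, 70.3, 56.0, 53.6 and 74.8 CPM in LP. LP 3M and LP 3M PIC lay apart from LP, and LP PIC overlapped it. The log2 change of Pfkl was 0.45 ± 0.13 for LP PIC, 1.20 ± 0.13 for LP 3M and 1.30 ± 0.13 for LP 3M PIC (adjusted p = 0.00716, 9.48e-07 and 6.24e-08).

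Pfkp had 95.4, 104, 135, 69.4 and 112 CPM in LP PIC, 117, 117, 135, 125 and 122 CPM in LP 3M, and 64.7, 80.7, 80.3, 76.9 and 70.6 CPM in LP 3M PIC, against 206, 224, 203, 191 and 177 CPM in LP. The LP libraries lay above all others. The log2 change was -0.91 ± 0.12 for LP PIC, -0.59 ± 0.12 for LP 3M and -1.31 ± 0.12 for LP 3M PIC (adjusted p = 5.58e-06, 0.000673 and 2.76e-08). Pfkm fell by 0.40, 0.49 and 0.88 (log2) in the same order (adjusted p = 0.0304, 0.0112 and 3.3e-05), with 12.8 ± 3.87 CPM in LP 3M PIC and 25.3 ± 2.35 CPM in LP.

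Per kilobase of transcript, Pfkl supplied 41.7 ± 5.24% of the 3 phosphofructokinase messages in LP PIC, 49.8 ± 5.72% with LP 3M and 63.1 ± 2.81% with LP 3M PIC, against 22.8 ± 3.01% in LP. Pfkp supplied 46.1 ± 5.90%, 41.9 ± 4.86% and 29.7 ± 2.51% in that order, against 65.3 ± 3.28% in LP. These shares rest on 1 transcript length per gene and were not tested, and 16% of the 100-base stretches of the Pfkp transcript also lie in the annotated Pitrm1, so that its count is uncertain.

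**Figure D4:**
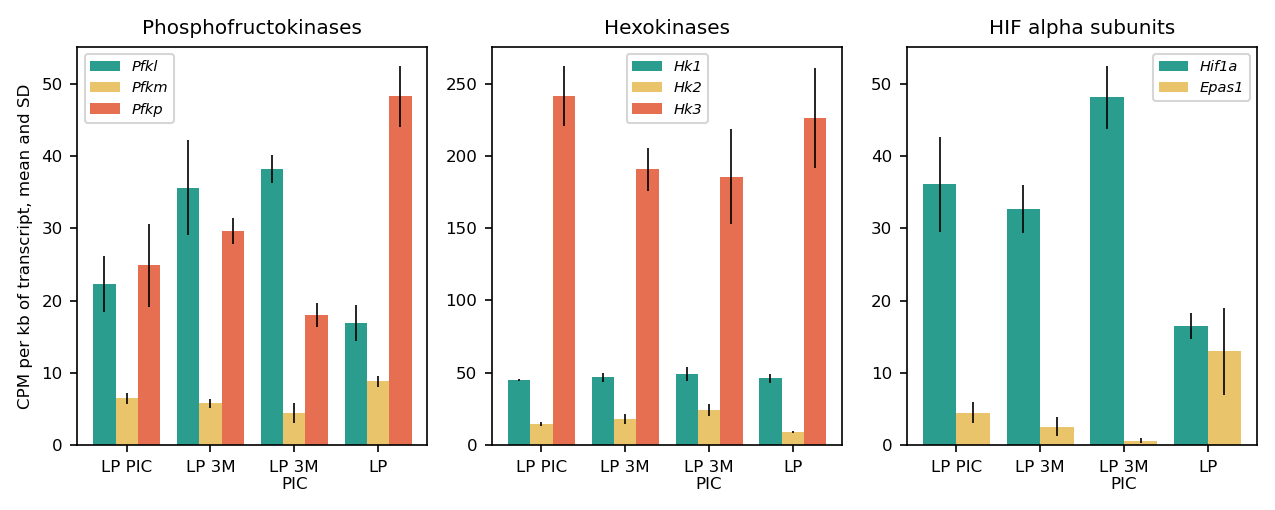
Mean CPM per kilobase of transcript with SD (n = 5) for the phosphofructokinases, the hexokinases and the HIF alpha subunits in the 4 conditions; bars start at 0. Pfkp was the highest phosphofructokinase in LP and Pfkl in LP 3M PIC, Hk3 was the highest hexokinase throughout, and Epas1 was near Hif1a in LP and far below it in LP 3M PIC.

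The bifunctional enzymes Pfkfb3 and Pfkfb4 set the level of fructose 2,6-bisphosphate, the activator of phosphofructokinase. Pfkfb3 had 81.3, 84.6, 76.2, 79.0 and 87.3 CPM in LP PIC, 133, 115, 79.1, 84.5 and 83.7 CPM in LP 3M, and 210.4, 362, 96.2, 147 and 99.0 CPM in LP 3M PIC, against 62.6, 70.5, 67.9, 60.6 and 92.9 CPM in LP. LP 3M PIC lay above LP without overlap, but mice 1 and 2 stood far above mouse 3 and mouse 5. Pfkfb3 rose in LP 3M PIC by 1.49 ± 0.29 (log2, adjusted p = 0.000193), or by 1.07 without mouse 2. In LP PIC and LP 3M its change was 0.25 ± 0.28 and 0.60 ± 0.28, which did not pass (adjusted p = 0.502 and 0.105). LP 3M PIC exceeded LP PIC by 1.24 ± 0.29 (adjusted p = 0.00193), or by 0.83 without mouse 2. Pfkfb4 fell by 0.29 in LP 3M PIC (adjusted p = 0.0197), with 24.8 ± 1.65 CPM there and 32.6 ± 2.55 CPM in LP.

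From aldolase to pyruvate kinase, most of the later steps of the pathway were higher in LP 3M. Of the 8 tested members 6 rose there and none fell, while 1 rose and 2 fell in LP PIC, and 4 rose and 1 fell in LP 3M PIC. Of all tested genes, 20% rose and 19.5% fell in LP 3M, 22.7% moved in each direction in LP PIC, and 31.7% rose and 30.6% fell in LP 3M PIC. Aldoa, the main aldolase, averaged 2147 ± 155 CPM in LP 3M and 1775 ± 146 CPM in LP and rose by 0.39 ± 0.07 (log2, adjusted p = 0.000413). Tpi1, which interconverts the triose phosphates, rose by 0.36 ± 0.10 (adjusted p = 0.00722) and Pgam1, phosphoglycerate mutase, by 0.43 ± 0.09 (adjusted p = 0.00101). In LP 3M PIC, Aldoa and Tpi1 rose by 0.25 each (adjusted p = 0.0062 and 0.0379), and the change of Pgam1 was 0.08 ± 0.09. None of these 3 genes passed in LP PIC.

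Gapdh, glyceraldehyde 3-phosphate dehydrogenase and often a reference gene, averaged 1542 ± 132 CPM in LP PIC, 2482 ± 379 CPM in LP 3M and 2126 ± 105 CPM in LP 3M PIC, against 1449 ± 186 CPM in LP. Its lowest library in LP 3M, at 2037 CPM, lay above its highest in LP, at 1660.4 CPM. It rose by 0.89 ± 0.11 (log2) in LP 3M and by 0.67 ± 0.11 in LP 3M PIC (adjusted p = 6.49e-06 and 4.08e-05), and its change was 0.13 ± 0.11 in LP PIC (adjusted p = 0.356).

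Pgk1, phosphoglycerate kinase, moved in opposite directions. It averaged 268 ± 26.7 CPM in LP PIC, 564 ± 88.7 CPM in LP 3M and 419 ± 62.9 CPM in LP 3M PIC, against 464 ± 82.8 CPM in LP. It fell by 0.75 (log2) in LP PIC (adjusted p = 0.00016), rose by 0.40 ± 0.13 in LP 3M (adjusted p = 0.0238) and its change was -0.03 ± 0.13 in LP 3M PIC. Without overlap between the groups, LP 3M exceeded LP PIC by 1.14 ± 0.14 (adjusted p = 2.32e-06). Pkm, pyruvate kinase, likewise fell by 0.32 in LP PIC and rose by 0.39 ± 0.13 in LP 3M (adjusted p = 0.0425 and 0.0194), with 1915 ± 167 CPM in LP PIC, 2979 ± 382 CPM in LP 3M and 2468 ± 388 CPM in LP.

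The minor isoenzymes of this stretch, Eno2 and Aldoc, changed in opposite directions in LP 3M PIC. Eno2, the enolase first known from neurons, had 24.3, 29.8, 24.0, 28.2 and 28.3 CPM in LP PIC, 24.0, 21.3, 20.0, 16.3 and 16.4 CPM in LP 3M, and 38.2, 23.3, 57.8, 44.3 and 47.8 CPM in LP 3M PIC, against 20.4, 17.6, 18.3, 17.7 and 20.1 CPM in LP. Both conditions with PIC lay above LP. Eno2 rose by 0.56 ± 0.17 (log2) in LP PIC and by 1.27 ± 0.17 in LP 3M PIC (adjusted p = 0.0107 and 2.53e-06), and its change was 0.17 ± 0.17 in LP 3M.

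Aldoc, the aldolase known from brain, had 21.5, 19.5, 38.1, 10.1 and 42.9 CPM in LP PIC, 30.9, 32.1, 48.0, 38.8 and 53.8 CPM in LP 3M, and 9.88, 9.15, 18.3, 9.15 and 29.5 CPM in LP 3M PIC, against 36.1, 34.4, 47.5, 41.4 and 36.5 CPM in LP. The LP 3M PIC libraries lay wholly below LP, the other conditions overlapped it, and mice 3 and 5 were the highest within each condition other than LP. Aldoc fell by 1.27 (log2) in LP 3M PIC (SE 0.35, adjusted p = 0.00408). In LP PIC its change was -0.54 ± 0.34 (adjusted p = 0.216), or by -0.68 with the mouse as a block, which passed (adjusted p = 0.0282).

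Eno1, the enolase of most tissues, had at most 2 counts in any library and was not tested. Of the 100-base stretches of its transcript, 59% also occur in other annotated genes, chiefly Eno1b, a near-identical copy that itself was counted at 0.205 to 1.12 CPM. Why Eno1 was counted so low was not tested, and its values are not read as its expression. The counts of Gapdh, Pgk1, Pgam1 and Bnip3 are uncertain too: 78%, 67%, 39.7% and 33.5% of their 100-base stretches occur elsewhere among annotated transcripts. For Pkm the share was 9.82%, for Gpi1 7.4% and for Hif1a 4.09%. The symbol Aldoa stands for 2 annotated loci, and genes of the same symbol were not compared, so overlap between these loci is not known.

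At the branch between lactate and mitochondria, Slc16a3 rose with 3M and Pdk1 fell with PIC. Slc16a3 (MCT4), the lactate exporter, had 74.5, 66.5, 91.6, 61.6 and 72.9 CPM in LP PIC, 181, 162, 109, 108 and 81.2 CPM in LP 3M, and 115, 145, 116, 123 and 102 CPM in LP 3M PIC, against 67.4, 63.1, 65.0, 58.9 and 67.5 CPM in LP. Both conditions with 3M lay above LP, and LP PIC overlapped it. The log2 change was 1.11 ± 0.18 for LP 3M and 1.02 ± 0.18 for LP 3M PIC (adjusted p = 7.97e-05 and 6.19e-05), and 0.23 ± 0.18 for LP PIC (adjusted p = 0.3).

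Pdk1, a pyruvate dehydrogenase kinase that holds pyruvate back from the mitochondrial matrix enzyme, had 27.3, 26.0, 29.8, 19.3 and 25.8 CPM in LP PIC, 62.3, 62.9, 44.6, 52.5 and 49.9 CPM in LP 3M, and 33.0, 31.1, 27.8, 29.6 and 26.3 CPM in LP 3M PIC, against 74.9, 70.9, 44.9, 54.0 and 54.0 CPM in LP. Both conditions with PIC lay below both conditions without it. Pdk1 fell by 1.17 (log2) in LP PIC and by 0.89 in LP 3M PIC (adjusted p = 1.16e-06 and 1.19e-05, SE 0.14 each), and its change was -0.02 ± 0.13 in LP 3M. LP 3M PIC lay below LP 3M by 0.88 (adjusted p = 5.61e-05). Pdk3, another of these kinases, rose by 0.40 ± 0.16 in LP PIC (adjusted p = 0.0415), and its change in LP 3M PIC was 0.29 ± 0.16, which passed with the mouse as a block (0.28, adjusted p = 0.0484) and not without it (adjusted p = 0.117).

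Ldha, the lactate dehydrogenase subunit of glycolytic tissue, did not pass against LP in any formulation. It averaged 589 ± 46 CPM in LP PIC, 809 ± 205 CPM in LP 3M and 759 ± 120.0 CPM in LP 3M PIC, against 705 ± 168 CPM in LP. In LP 3M its change was 0.32 ± 0.17 (log2, adjusted p = 0.139), or by 0.31 with the mouse as a block, which passed (adjusted p = 0.0275). LP 3M exceeded LP PIC by 0.53 ± 0.17 (adjusted p = 0.014). Slc16a1 (MCT1), a lactate and pyruvate transporter, rose by 0.48 ± 0.19 in LP 3M PIC (adjusted p = 0.036). In LP 3M its change was 0.43 ± 0.19 (adjusted p = 0.0817), or by 0.42 with the block, which passed (adjusted p = 0.0225).

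The 3 other hypoxia-responsive members did not share a direction. Ddit4 (REDD1), an inhibitor of mTOR complex 1 induced by hypoxia and other stresses, had 3.17, 4.71, 4.16, 3.13 and 2.36 CPM in LP PIC, 3.48, 3.45, 1.77, 1.23 and 1.66 CPM in LP 3M, and 3.94, 10.003, 10.046, 9.89 and 6.19 CPM in LP 3M PIC, against 1.22, 2.26, 1.70, 0.871 and 1.47 CPM in LP. Both conditions with PIC lay above LP, and LP 3M overlapped it. The log2 change was 1.30 ± 0.34 in LP PIC and 2.56 ± 0.34 in LP 3M PIC (adjusted p = 0.00375 and 2.31e-06), and 0.78 ± 0.34 in LP 3M (adjusted p = 0.0757).

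Vegfa, the angiogenic growth factor and a textbook HIF target, fell in both conditions with 3M. It averaged 52.8 ± 5.53 CPM in LP PIC, 26.5 ± 4.83 CPM in LP 3M and 27.8 ± 11.3 CPM in LP 3M PIC, against 45.7 ± 7.95 CPM in LP. It fell by 0.68 (log2) in LP 3M and by 0.62 in LP 3M PIC (adjusted p = 0.00841 and 0.0089), and its change was 0.24 ± 0.19 in LP PIC (adjusted p = 0.314). Bnip3, a mitophagy receptor, rose by 0.40 ± 0.15 in LP 3M PIC (adjusted p = 0.0266), or by 0.24 without mouse 2 (adjusted p = 0.148).

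Set against each other, the single formulations differed in 21 members: 19 were higher and 2 lower in LP 3M than in LP PIC, where 47.1% of all tested genes were called, 24.4% higher and 22.7% lower, with a median difference of 0.38 (log2) against -0.01 over all genes. With library totals in place of TMM, 16 were higher and 4 lower, and the median difference over all genes was -0.076. For that scaling the share of all genes called is not given here. Pgk1, Pdk1 and Egln3, 3 members against 11% of all tested genes, differed by more than 1, all higher in LP 3M. Pdk1 was higher by 1.16 ± 0.14 (adjusted p = 2.21e-06), Pfkl by 0.75 ± 0.13 (adjusted p = 0.000103), Gapdh by 0.76 ± 0.11 (adjusted p = 2.71e-05) and Pkm by 0.71 ± 0.13 (adjusted p = 0.000159). The 2 members lower in LP 3M were Vegfa (-0.93 ± 0.19, adjusted p = 0.000707) and Slc2a6 (-0.66 ± 0.26, adjusted p = 0.0464). With the mouse as a block, Aldoc (0.79, adjusted p = 0.012), Pfkfb4 (0.23, adjusted p = 0.0279) and Hk3 (-0.28, adjusted p = 0.0449) passed as well.

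The dual formulation exceeded LP PIC in 16 members and lay below it in 4, where 44.5% of all tested genes were called, 23.1% higher and 21.4% lower. Pfkfb3 and Ddit4 differed by more than 1, 2 members against 10.6% of all tested genes, and Ddit4 was higher by 1.26 ± 0.31 (adjusted p = 0.00309). Slc2a1, Pfkl, Slc16a3, Pgk1 and Gapdh were higher by 0.96, 0.85, 0.78, 0.72 and 0.53 (adjusted p between 3.9e-05 and 0.0015). The 4 lower members were Vegfa, Pfkm, Pfkp and Hk3. With the mouse as a block, Tpi1 (0.24, adjusted p = 0.0117), Pdk1 (0.27, adjusted p = 0.0387), Aldoc (-0.74, adjusted p = 0.0209) and Pfkfb4 (-0.22, adjusted p = 0.0371) passed as well.

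Against LP 3M, the dual formulation was higher in 6 members and lower in 10, where 41.5% of all tested genes were called, 20.5% higher and 21% lower. Differences of at least 1 were called for 4 members, against 11.1% of all tested genes. Ddit4 was higher by 1.78 ± 0.32 (adjusted p = 0.000227) and Eno2 by 1.10 ± 0.17 (adjusted p = 4.86e-05), followed by Pfkfb3, Slc2a6, Hif1a and Hk2. The difference was -1.44 ± 0.35 for Egln3 (adjusted p = 0.0026), -1.43 ± 0.35 for Aldoc (adjusted p = 0.00341), -0.88 ± 0.14 for Pdk1 and -0.72 ± 0.12 for Pfkp. The groups did not overlap for any of these 4 genes. The lower members also held Egln1, Gpi1, Pfkm, Pfkfb4, Pgk1 and Pgam1.

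The interaction asks whether the dual change differs from the sum of both single changes on the log2 scale, which assumes equal amounts of each agent in both, as do the comparisons of the dual with the single formulations. The sources used here give no amounts. The interaction passed for 2 members, both below the sum, against 8.43% of all tested genes, 3.82% above and 4.62% below the sum. The interaction of 1 member, Slc2a6, reached 1 in size, against 3.59% of all tested genes. Slc2a6 changed by 2.69 in LP 3M PIC, where the single changes sum to 4.32, an interaction of -1.63 ± 0.37 (adjusted p = 0.0118). Hif1a changed by 1.66 where they sum to 2.28, an interaction of -0.61 ± 0.14 (adjusted p = 0.0129). With fewer libraries, Hif1a did not pass without mouse 1 (-0.54, adjusted p = 0.139) or mouse 3 (-0.62, adjusted p = 0.053), and Slc2a6 did not pass without mouse 1 (-1.46, adjusted p = 0.106) or mouse 4 (-1.66, adjusted p = 0.0672). With the mouse as a block, Pfkfb4 passed as well (-0.39, adjusted p = 0.0353), as it and Eno2 did without mouse 2 (-0.51 and 0.78, adjusted p = 0.0324 and 0.0487). For the other members no difference from the sum was detected, which does not show that the changes add up.

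**Figure D5:**
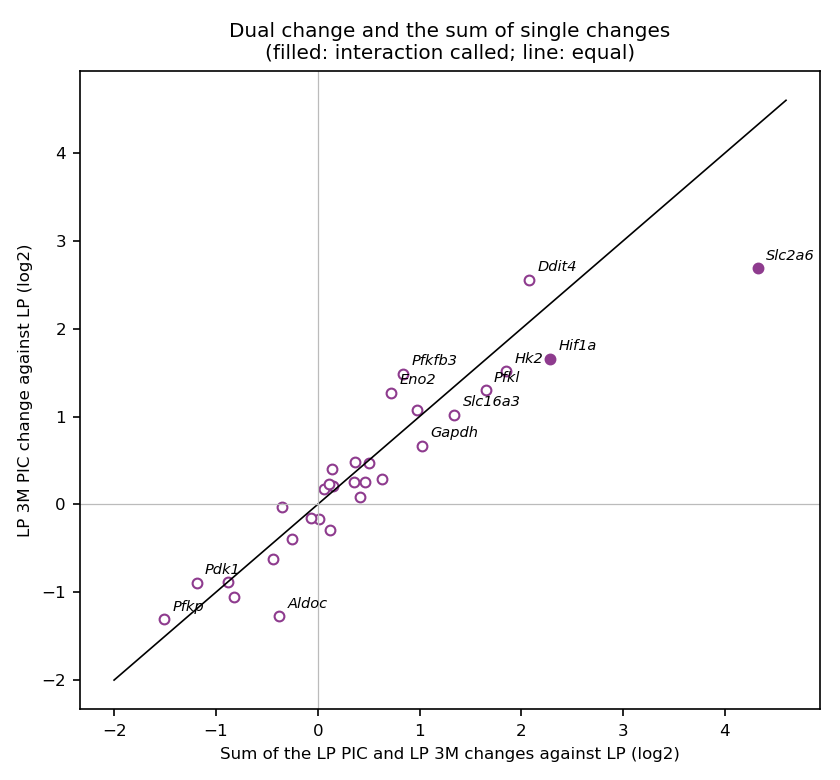
Change in LP 3M PIC against LP (vertical axis, log2) and the sum of the LP PIC and LP 3M changes against LP (horizontal axis, log2) for the 31 tested members; the line marks equality and filled points passed the interaction test. Both axes share the LP libraries, so closeness to the line is not read as a result; Slc2a6 and Hif1a lie below it by 1.63 and 0.61.

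Leaving out a mouse, which also leaves fewer libraries, ended some calls while no called member changed direction. Of the calls against LP, 9 of 15 in LP PIC, 13 of 16 in LP 3M and 16 of 24 in LP 3M PIC passed whichever mouse was left out. The share of all genes that kept their calls is not given here, so these counts are not read as a trait of the members. In LP PIC, the calls of Egln1 (without mouse 1, 4 or 5), Gpi1 (1, 2 or 4), Pfkm (1, 2, 3 or 4), Eno2 (4), Pkm (1, 2 or 4) and Pdk3 (1, 3, 4 or 5) were lost, with adjusted p between 0.0516 and 0.196, and without mouse 4 the count of called members was 9 in place of 15. In the fits where the call was lost, the log2 change of Egln1 was -0.34 to -0.30 (-0.32 with all mice), that of Pfkm -0.40 to -0.35 (-0.40) and that of Pdk3 0.31 to 0.45 (0.40). Without the shallow LP library of mouse 2 alone, Egln1, Gpi1, Pfkm, Pkm and Pdk3 did not pass. In LP 3M, those of Pgk1 (2, 3 or 4), Pkm (3 or 4) and Vegfa (3 or 4) were lost, with adjusted p between 0.0535 and 0.0971. In LP 3M PIC, those of Egln3 (5), Hk1 (3 or 4), Pfkfb4 (1, 3 or 4), Aldoa (4), Tpi1 (2, 3, 4 or 5), Slc16a1 (1 or 2), Vegfa (4) and Bnip3 (1, 2 or 4) were lost, with adjusted p between 0.0545 and 0.156. Without the shallow LP 3M PIC library of mouse 3 alone, Hk1 did not pass (adjusted p = 0.0719) and Hk3 passed as lower (-0.27, adjusted p = 0.0338). Without LP of mouse 2 alone, Bnip3 did not pass in LP 3M PIC and Ldha passed in LP 3M (0.44, adjusted p = 0.0469). Bnip3 passed in LP 3M without mouse 5 (0.47, adjusted p = 0.0301), and Pdk3 in LP 3M PIC without mouse 2 (0.36, adjusted p = 0.0457).

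Calls between formulations were followed in the same way, again without the share of all genes that kept their calls. Between LP 3M and LP PIC, 15 of 21 calls passed whichever mouse was left out, and those of Slc2a6 (without mouse 1, 2, 4 or 5), Hk2 (1, 2, 3 or 4), Pfkp (1, 2 or 4), Ldha (1), Slc16a1 (1, 2, 3 or 4) and Bnip3 (1) did not, with adjusted p up to 0.205. Between LP 3M PIC and LP PIC, 14 of 20 passed, and those of Hk1 (1, 2, 3 or 4), Hk3 (1, 2 or 4), Pfkm (1), Pfkp (1, 3 or 5), Ldha (1, 2, 3 or 4) and Slc16a1 (1 or 2) did not, with adjusted p up to 0.18. Between LP 3M PIC and LP 3M, 9 of 16 passed, and those of Slc2a6 (4 or 5), Hk2 (2, 3 or 4), Gpi1 (1), Pfkm (1, 2 or 4), Pfkfb3 (2 or 4), Pgk1 (1 or 4) and Pgam1 (1) did not, with adjusted p up to 0.16. Without mouse 2, Pfkfb3 in LP 3M PIC exceeded LP 3M by 0.54 and Slc16a1 in LP 3M PIC exceeded LP PIC by 0.34, and without mouse 4, Pfkp in LP 3M exceeded LP PIC by 0.19. Without the LP 3M library of mouse 5 alone, Hk2 and Pfkm did not pass between LP 3M PIC and LP 3M, nor did Slc2a6 and Slc16a1 between LP 3M and LP PIC. Without the LP 3M PIC library of mouse 3 alone, Hk1 and Ldha did not pass between LP 3M PIC and LP PIC. Some members that did not pass with all mice did so with 1 mouse left out: Eno2 (1 or 2), Hk3 (3), Pfkfb4 (2) and Aldoc (5) between LP 3M and LP PIC, and Egln3 (3), Pfkfb4 (2) and Aldoc (5) between LP 3M PIC and LP PIC. Gapdh in LP 3M PIC passed as lower than in LP 3M without the LP 3M library of mouse 5 (-0.29, adjusted p = 0.0401).

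The mice also differed from each other within a condition. In LP 3M, mice 1 and 2 gave the 2 highest libraries for 22 of 31 members (71%), against 15.4% of all tested genes. The same pair was highest for 5 members in LP PIC, 10 in LP 3M PIC and 12 in LP (16.1%, 32.3% and 38.7%, against 20.1%, 16.9% and 24.8% of all tested genes). The 9 members for which it was not highest in LP 3M were Slc2a6, Hk1, Hk3, Pfkm, Pfkp, Pfkfb4, Aldoc, Slc16a1 and Pdk3. These shares are a description, since members of a pathway are not independent and the labels give no batch or litter.

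Genes next to the 32 members in the pathway were counted in the same way. In LP 3M PIC against LP, 1 of 17 tested genes for other glycolytic isoenzymes and sugar transporters rose and 9 fell (24 listed). Their median log2 change was -0.29, where 31.7% of all tested genes rose and 30.6% fell. In LP 3M, where most called members rose, 1 of the 17 rose and 5 fell, with a median of -0.11. Of all tested genes 20% rose and 19.5% fell there. In LP PIC, 2 rose and 5 fell, with a median of -0.09, against 22.7% of all tested genes in each direction. Ldhb, the other lactate dehydrogenase subunit, averaged 2.16 ± 2.10 CPM in LP 3M PIC and 8.46 ± 3.22 CPM in LP and fell by 1.87 (SE 0.60, adjusted p = 0.0115). Of 13 genes for the entry of pyruvate into mitochondria and its use there, 5 rose and 3 fell in LP 3M PIC. Pcx, pyruvate carboxylase, averaged 12.8 ± 2.12 CPM in LP PIC, 27.0 ± 2.82 CPM in LP 3M and 23.9 ± 9.06 CPM in LP 3M PIC, against 8.52 ± 1.70 CPM in LP, and rose by 1.60 ± 0.20 in LP 3M PIC (adjusted p = 1.26e-06). Pdk2, a further pyruvate dehydrogenase kinase, averaged 12.9 ± 1.92 CPM in LP PIC, 6.52 ± 2.02 CPM in LP 3M and 4.73 ± 1.46 CPM in LP 3M PIC, against 15.8 ± 0.501 CPM in LP, and fell by 1.17 in LP 3M and by 1.63 in LP 3M PIC (adjusted p = 3.46e-05 and 2.23e-07). Of 10 tested genes of gluconeogenesis and glycogen metabolism (14 listed), 3 rose and 6 fell in LP 3M PIC. Pck2, the mitochondrial phosphoenolpyruvate carboxykinase, fell by 1.62 (SE 0.12, adjusted p = 2.15e-09), with 17.9 ± 2.27 CPM in LP 3M PIC and 59.5 ± 2.44 CPM in LP.

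Of 28 other known HIF-1 targets tested (30 listed), 8 rose and 8 fell in LP 3M PIC, with a median log2 change of 0.03, where 31.7% of all tested genes rose and 30.6% fell. In LP 3M, 6 rose and 8 fell, against 20% and 19.5% of all tested genes, and in LP PIC, 4 rose and 9 fell, against 22.7% in each direction. Hmox1, heme oxygenase 1, averaged 1106 ± 123 CPM in LP PIC, 1871 ± 641 CPM in LP 3M and 2920.2 ± 527 CPM in LP 3M PIC, against 900.4 ± 302 CPM in LP, and rose by 1.18 ± 0.23 in LP 3M and by 1.82 ± 0.23 in LP 3M PIC (adjusted p = 0.000514 and 1.81e-06). Zfp395, a zinc finger gene, had log2 changes of -1.71 for LP PIC, -1.78 for LP 3M and -4.69 for LP 3M PIC (adjusted p = 5.91e-06, 7.14e-06 and 1.02e-10), with 1.02 ± 0.567 CPM in LP 3M PIC and 28.9 ± 1.43 CPM in LP. Mxi1, a MYC antagonist, fell by 2.08 in LP 3M PIC (adjusted p = 3.44e-07), with 8.62 ± 3.05 CPM there and 39.6 ± 7.01 CPM in LP. Rora, a nuclear receptor, fell by 1.76 in LP 3M PIC (adjusted p = 5.19e-06), with 4.90 ± 1.94 CPM there and 17.9 ± 3.20 CPM in LP.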

How the data were processed

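RNA of 20 cultures was sequenced from stranded, poly(A)-enriched libraries, per the labels' protocols. The authors deposited 1 table of raw read counts per library, keyed by gene symbol and not normalised. The submitters' processing notes name STAR 2.7.11b, HTSeq 0.13.5 and genome build GRCm38. Annotation and strand setting of the counting: not given in the sources used here. Entries naming no gene (5.94 to 8.58% outside genes, 1.14 to 1.90% ambiguous) stayed out of library sizes and tests. No 2 libraries held duplicate counts.

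Counts were analysed with edgeR 4.0.16 in R 4.3.3. Genes were filtered by filterByExpr (minimum count 10, minimum total 15), which kept 99.969% of the counts, and scaled by TMM (factors 0.945 to 1.07). A two-sided quasi-likelihood test in edgeR was fitted with 1 mean per condition over all 20 libraries, with Benjamini-Hochberg adjustment over all 12132 genes and calls at 0.05. The SE is the size of the log2 change over the root of its F statistic. In simulated LP PIC against LP data on 12008 genes, 93.9% of genes changed by 1 (log2) and 100% of those changed by 2 were recovered. That simulation had 99 changed genes of each size, the same spread for all genes and no mouse effect. It therefore says nothing about the recovery of smaller changes. The depth puts a floor of 3 counts at 0.126 to 0.308 CPM, which covers counting error only.

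The labels give the same 5 mouse identities in each condition. Deviations from condition means correlated in all 30 same-mouse pairs (r from 0.137 to 0.541, median -0.152 between different mice), so the mouse pairs the libraries, and a fit with the mouse as a block was run beside the main one. A replicate is the library of 1 mouse.

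Alternatives were DESeq2 1.42.0 (Wald test and size factors), no or a stricter filter (1 CPM in 5 libraries), the 2 compared conditions alone, leaving out mice or libraries, and, chosen after seeing the data, library totals without TMM. Members and lists were chosen with earlier results of these data known. All 32 members are named, and those called with an absolute log2 change of at least 1 against LP, or with such an interaction, have every library's value. From the neighbouring lists, up to 4 genes each are named: called in LP 3M PIC against LP, with an absolute change of at least 1.5 and at least 5 CPM in the higher condition, largest first. Slc2a3 and Epas1 are also among these.

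Coordinates and transcripts come from GENCODE M21 (GRCm38), and promoter windows from RefSeq (GRCm38.p6, all 32 members matched). Levels per kilobase use the longest consensus coding transcript of each gene.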

Additional observations from a re-analysis of the deposited data

Results flagged for a closer look

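In 5 of 124 groups of 5 libraries examined, 1 library stood far from the other 4. Chance alone flags about 1 in 20 such groups. Egln3 was at 3.02 CPM in LP PIC of mouse 3, where the other LP PIC libraries were at 0.706 to 0.864 CPM. Without mouse 3 its change in LP PIC against LP was -1.76 (adjusted p = 0.000153), and LP 3M PIC exceeded LP PIC by 0.80 (adjusted p = 0.0393), which did not pass with all mice (0.16, adjusted p = 0.738). LP PIC of mouse 4 was lowest for 3 genes: Slc2a1 at 57.8 CPM (others 79.1 to 83.2), Pkm at 1631 CPM (others 1944 to 2071) and Vegfa at 43.0 CPM (others 54.3 to 56.7). Without mouse 4 the fall of Pkm in LP PIC was 0.31 on the log2 scale and did not pass (adjusted p = 0.118). Vegfa was at 47.2 CPM in LP 3M PIC of mouse 5, where the other LP 3M PIC libraries were at 20.4 to 28.0 CPM, and without mouse 5 it fell by 0.86 in LP 3M PIC against LP (adjusted p = 0.000292).

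By the interaction test, the effect of PIC differed with and without 3M for 2 of 31 tested members (6.45%), against 8.43% of all tested genes. For Hif1a the interaction was -0.61 ± 0.14 (adjusted p = 0.0129) and for Slc2a6 -1.63 ± 0.37 (adjusted p = 0.0118). Each had this direction in 5 of 5 mice, and without single mice both calls were lost at values of -0.62 to -0.54 for Hif1a and -1.66 to -1.46 for Slc2a6. What these values come from was not tested.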

How the results depend on the processing

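The 7 counts of called members and 114 calls of single members were followed under 15 alternatives, and none of the 114 changed direction. The call was lost at least once for 38 of them, each of which was among those lost when a mouse was left out, which also leaves fewer samples. Leaving out a mouse gave 9 to 13 called members in LP PIC against LP (15 with all mice), 13 to 17 in LP 3M (16), 18 to 22 in LP 3M PIC (24), 14 to 20 between LP 3M PIC and LP PIC (20), 11 to 15 between LP 3M PIC and LP 3M (16), 16 to 21 between LP 3M and LP PIC (21) and 0 to 4 for the interaction (2). The lowest count in LP PIC was without mouse 4. Of the interaction, 0 members passed without mouse 1, 4 without mouse 2 and 1 without mouse 3 or mouse 4. With the mouse as a replicate block the counts were 16, 18, 25, 24, 16, 24 and 3 in the same order, and it changed no call other than those given beside their results. Among comparisons with LP, library totals without TMM cost the calls of Hk1, Aldoa, Tpi1, Slc16a1 and Bnip3 in LP 3M PIC, of Pgk1 and Pkm in LP 3M and of Pdk3 in LP PIC, and added falls of Gpi1 and Hk3 in LP 3M PIC. DESeq2 (Wald test) gave 22 called members between LP 3M PIC and LP PIC and 23 between LP 3M and LP PIC, and the same counts as edgeR elsewhere. The cause of these changes was not tested, and the share of all genes called under the alternatives is not given here. Depth limits Egln3 and Ddit4 most, at 132 and 234 counts in their highest library.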
